A study of Mus musculus with 22 samples.

Results

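The CCN family and the target genes of the transcriptional coactivator YAP were followed in lung epithelial cells exposed to carbon nanotubes, through 10 genes: Ccn1 (also Cyr61), Ccn2 (Ctgf), Ccn3 (Nov), Ccn4 (Wisp1), Ccn5 (Wisp2), Ankrd1, Amotl2, Lats2, Axl and Yap1. Their probes were found by matching the accession of each array probe to a gene symbol, which gave 12 of 55681 probes and 10 of the 20018 genes that could be named. Lats2 and Ccn4 had 2 probes each, and each gene was represented by the probe with the brightest Cy5 signal. The cells were FE1, a spontaneously immortalised epithelial line from the lung of the Muta Mouse, whose bacterial reporter transgene all groups carry, grown in all groups in medium with serum, antibiotics and murine epidermal growth factor. They received vehicle (Control) or Mitsui7, a long and rigid multiwalled carbon nanotube, at 12.5 µg/ml (D1, low), 25 µg/ml (D2, medium) or 100 µg/ml (D3, high) for 24 h. There were 5 control, 6 low, 5 medium and 6 high dose arrays, 22 in all, each hybridised with Cy5-labelled sample against Cy3-labelled Universal Mouse Reference RNA. FE1 is 1 line, and all 3 comparisons with control share the same 5 control arrays.

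CCN proteins are secreted into the matrix around a cell, where they bind integrins and other surface receptors and alter adhesion, migration and growth-factor signalling. Ccn1 and Ccn2 are classical target genes of YAP and its paralogue TAZ, which enter the nucleus, bind TEAD transcription factors and switch on genes when the kinases of the Hippo pathway, LATS1 and LATS2, leave them unphosphorylated. The pathway responds to cell shape, stiffness and contact, and several target genes encode its own inhibitors, such as Lats2 and Amotl2. In lung, CCN2 is best known from fibrosis.

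The promoters are shown because Ccn1, Ankrd1 and Lats2 rose in the data that follow and because TEAD factors recognise a short element, GGAATG, which reads CATTCC on the other strand. Sequences from 250 bases before to 50 bases after a gene start were at hand for 6 of the 10 genes (RefSeq, build GRCm38.p6). There was none for Ccn2, Ccn3, Ccn4 and Ccn5. Each gene of the 6 held the element at least once, against 14.7% of the 32851 promoters of that length and 16.6% of 27025 genes. The list was drawn up around known YAP target genes, so this comparison is a description and not independent evidence. Amotl2, Axl and Yap1 held the element too, and passed the test used below at no dose. Ankrd1 held 2 copies, where 1.36% of all promoters held 2 or more, and the second Lats2 start held none. None of the 6 held an AP-1-like TGANTCA, present in 7.81% of promoters, in these windows. Capitals mark the TEAD element in the sequences, which run 5′ to 3′ on the strand of the gene.
Ccn1 (chr3:145649936-145650235, minus strand, element starting 103 bases before the gene start): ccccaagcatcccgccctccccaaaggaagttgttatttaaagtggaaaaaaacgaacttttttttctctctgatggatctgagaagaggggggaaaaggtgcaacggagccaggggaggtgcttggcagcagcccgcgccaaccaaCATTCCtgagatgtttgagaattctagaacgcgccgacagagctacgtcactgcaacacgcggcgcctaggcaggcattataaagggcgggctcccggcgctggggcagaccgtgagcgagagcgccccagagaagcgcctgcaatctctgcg
Ankrd1 (chr19:36119795-36120094, minus strand, elements starting 210 and 123 bases before the gene start): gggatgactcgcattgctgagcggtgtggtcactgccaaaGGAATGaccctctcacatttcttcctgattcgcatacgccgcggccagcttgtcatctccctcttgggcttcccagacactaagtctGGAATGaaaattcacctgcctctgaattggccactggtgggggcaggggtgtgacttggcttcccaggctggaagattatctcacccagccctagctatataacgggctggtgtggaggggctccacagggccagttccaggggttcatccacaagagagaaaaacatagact
Lats2 (first of 2 starts, chr14:57746074-57746373, minus strand, element starting 4 bases past the gene start): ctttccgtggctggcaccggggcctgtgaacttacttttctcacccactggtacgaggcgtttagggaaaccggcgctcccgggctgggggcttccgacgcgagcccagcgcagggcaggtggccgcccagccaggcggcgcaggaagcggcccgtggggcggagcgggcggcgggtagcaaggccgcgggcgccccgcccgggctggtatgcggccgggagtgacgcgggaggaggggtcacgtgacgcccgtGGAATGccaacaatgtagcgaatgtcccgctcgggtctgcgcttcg
Amotl2 (part, chr9:102717719-102717764, plus strand, element starting 65 bases before the gene start): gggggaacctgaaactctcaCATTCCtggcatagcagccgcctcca
Axl (part, chr7:25788941-25788983, minus strand, element starting 233 bases before the gene start): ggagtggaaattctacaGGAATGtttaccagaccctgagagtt
Yap1 (part, chr9:8004712-8004757, minus strand, element starting 141 bases before the gene start): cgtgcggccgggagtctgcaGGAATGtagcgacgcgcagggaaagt
A match describes letters in a window and was not measured as a bound site.

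Between 24185 and 38531 probes were detected on an array. The arrays were spread over 5 slides, 4 of which held every group, so slide was a term of the fit and differences within slides are given beside the main ones. Low dose replicate 1 correlated better with the medium dose arrays (mean r 0.931) than with its own group (0.890), low dose replicate 4 correlated as weakly with its own group (0.890), and medium dose replicate 2 was closer to the high dose arrays (0.925) than to its own group (0.908). Other exposed arrays, among them medium dose replicates 1, 3 and 5, were also slightly closer to another dose than to their own, by less than 0.01, so the doses were not sharply separated. Calls that change without the 3 arrays named are given with the gene. Of 12 lung epithelial markers, Krt8, Krt18 and Pdpn were detected on all 22 arrays while Cdh1, Nkx2-1 and Sftpa1 were detected on none. The mean log2 ratio to the reference in control was -4.35 for Krt8 and -5.62 for Krt18. The 12 epithelial markers together took 0.00482% to 0.00782% of the Cy5 signal of control arrays and 0.00651% to 0.00926% at the high dose, far less than the fibroblast markers below. All 7 fibroblast markers were detected on every array, and 5 of them (Col1a1, Col1a2, Col3a1, Dcn and Pdgfra) were lower than control at each dose. Vim and Thy1 were called at no dose and did not follow the other 5. The mean log2 ratio of Vim was -0.44 in control and -0.15, -0.04 and -0.14 at the low, medium and high doses. That of Thy1 was -2.76 in control and -2.65, -2.92 and -2.77 at these doses. The fibroblast markers together took 0.251% to 0.312% of the Cy5 signal of control arrays. They took 0.167% to 0.206% at the low, 0.153% to 0.176% at the medium and 0.12% to 0.166% at the high dose. This summed share, though not each marker, fell at the doses where Ccn2, Ankrd1 and Lats2 rose. The part of these markers in the changes was not tested. In RNA from whole cultures, fewer cells of a type and less RNA per cell cannot be told apart.

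Exposure to Mitsui7 was accompanied by higher Ccn2, Ankrd1 and Lats2 at every dose and by higher Ccn1 at the medium and high doses, while Ccn5 was lower at the high dose. Ccn2 rose most, by 1.49 at the low, 2.12 at the medium and 2.10 at the high dose on the log2 scale, which is 2.80-fold, 4.35-fold and 4.30-fold. Ccn4, Amotl2, Axl and Yap1 passed the test at no dose, and Ccn3 was not detected. A gene was called when its adjusted p (limma, Benjamini-Hochberg over all probes) was at most 0.05, its change at least 1.5-fold and its probe detected on 4 or more arrays of 1 of the groups compared, which held for 9 of the 10 genes. At the low dose 3 of the 10 genes were called higher and none lower, where 1.3% of 30677 detected probes were called higher and 1.92% lower. At the medium dose 4 were called higher and none lower, against 2.62% and 2.88% of 30049 probes. At the high dose 4 were called higher and 1 lower, against 3.27% and 4.18% of 32321 probes. The median change of the 9 detected genes was 0.37, 0.35 and 0.35 from the low to the high dose, beside 0.01 over all detected probes at each dose. With median centring in place of loess the calls fell to 1, 2 and 3 genes, while the calls of Ccn2 held. Lats2 then lost its call at every dose, with changes of 0.49, 0.95 and 0.93 (adjusted p = 0.572, 0.115 and 0.0771). Ankrd1 lost it at the low dose, at 1.08 (adjusted p = 0.0673), and Ccn1 at the medium and high doses, at 0.74 and 0.65 (adjusted p = 0.0561 and 0.0651).

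**Figure D1:**
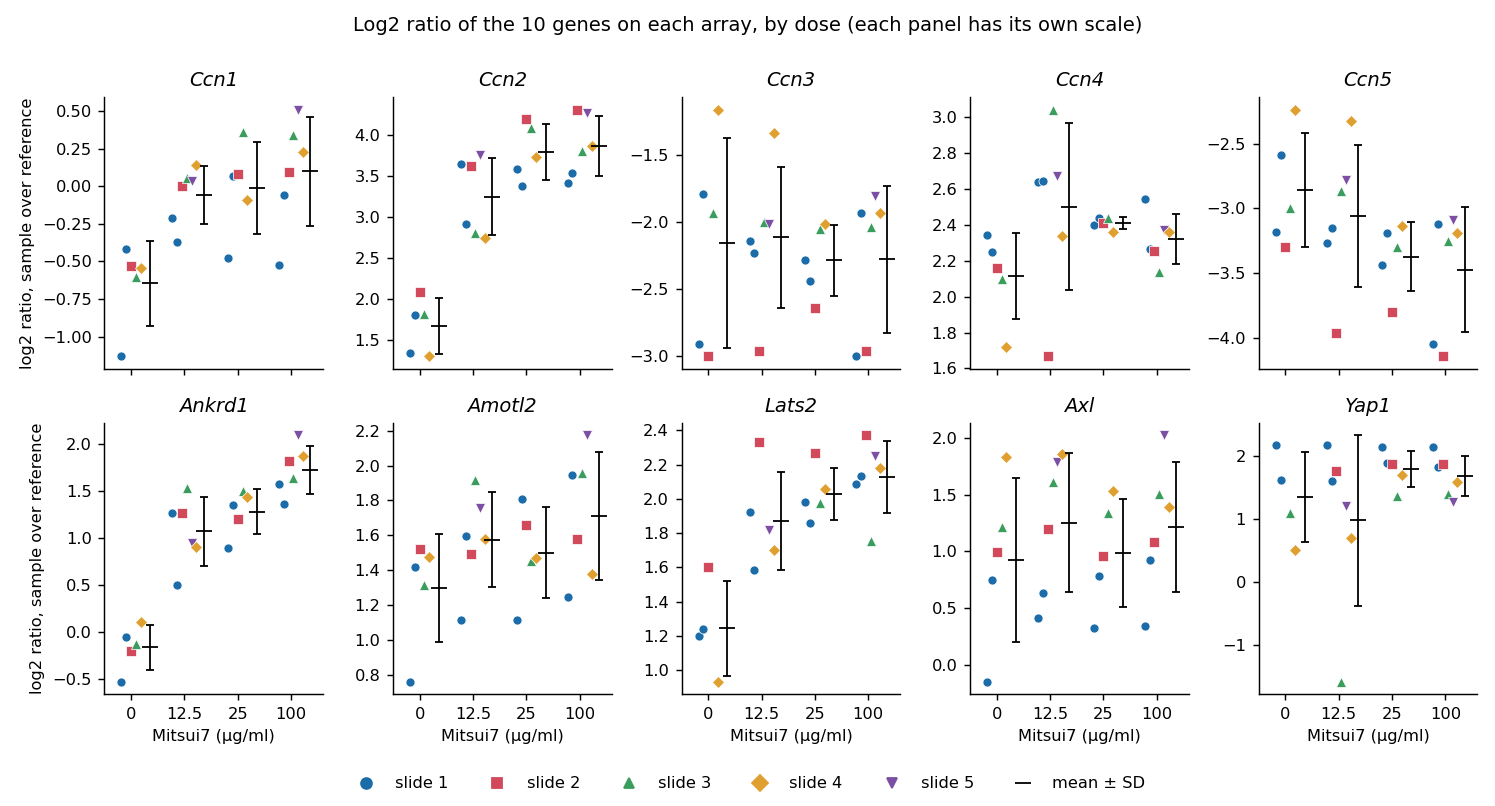
Log2 ratio of sample over reference RNA (vertical axis, a scale for each gene) on each of the 22 arrays by Mitsui7 concentration (horizontal axis), 1 panel per gene. Points are arrays, marked by slide, and the black bar is the mean ± SD of a group. The exposed arrays of Ccn2 and Ankrd1 all lie above the 5 control arrays, whereas the points of Axl separate by slide rather than by dose.

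Ccn2 encodes connective tissue growth factor, a matrix protein that promotes collagen deposition. Its log2 ratio to the reference was 1.34, 1.81, 2.08, 1.82 and 1.30 on the control arrays, in the order of their replicate numbers. At the low dose it ranged from 2.74 to 3.76 with a median of 3.27, at the medium dose it was 3.58, 3.38, 4.20, 4.08 and 3.73, and at the high dose it ranged from 3.41 to 4.31 with a median of 3.84. Each of the 17 exposed arrays stood above every control array. The change was 1.49 ± 0.16 (SE) at the low dose (limma adjusted p = 8.41e-06), 2.12 ± 0.16 at the medium dose (adjusted p = 8.26e-08) and 2.10 ± 0.16 at the high dose (adjusted p = 3.31e-08). Within the 4 slides that hold all groups, the difference from control was 0.98 to 1.71 at the low, 1.90 to 2.43 at the medium and 1.90 to 2.57 at the high dose. The Cy5 signal of the Ccn2 probe ran from 3289 to 133269, and none of the 264 spots of the 10 genes was marked as saturated.

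Ccn1 encodes CYR61, an immediate-early matrix protein that supports adhesion and can drive senescence in fibroblasts. Its log2 ratio was -1.13, -0.42, -0.53, -0.61 and -0.55 on the control arrays. It ranged from -0.37 to 0.14 (median 0.02) at the low dose, was -0.48, 0.07, 0.08, 0.36 and -0.09 at the medium dose, and ranged from -0.52 to 0.51 (median 0.16) at the high dose. All 6 low dose arrays, 4 of 5 medium and 5 of 6 high dose arrays stood above every control array. The exceptions were replicate 1 of the medium and high doses, on the slide that held both the lowest and the highest control. With slide effects removed, 5 of 6 low, 3 of 5 medium and 5 of 6 high dose arrays stood above every control array. The change was 0.54 ± 0.14 at the low dose, where the adjusted p of 0.0292 passed and the 1.45-fold size did not. It was 0.63 ± 0.14 at the medium dose (adjusted p = 0.00726) and 0.69 ± 0.14 at the high dose (adjusted p = 0.00176), both called. On all 4 slides the difference was above 0 at each dose, between 0.45 and 0.97. The change at the medium dose lay just above 1.5-fold, and leaving out control replicate 1 or 4 or medium dose replicate 2 or 4 gave 0.55 to 0.58, under that size, with adjusted p of 0.0231 to 0.0317. Without the 3 arrays that stood apart it was likewise not called (0.55, adjusted p = 0.0279). Without control replicate 2 the low dose change was 0.66 (adjusted p = 0.00465) and was called.

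Ccn5 differs from the other CCN proteins in lacking the C-terminal cystine knot domain, and is known to oppose growth of smooth muscle and fibroblasts. Its signal was close to background, with Cy5 between 77.5 and 218, and it was marked well above background on 4 of 5 control, 3 of 6 low, 1 of 5 medium and 1 of 6 high dose arrays. The log2 ratio was -3.18, -2.59, -3.29, -2.99 and -2.24 in control and -3.44, -3.19, -3.80, -3.30 and -3.14 at the medium dose. It ranged from -3.96 to -2.33 (median -3.01) at the low and from -4.14 to -3.09 (median -3.22) at the high dose. The groups overlapped before the slides were taken into account, and the low and high doses still overlapped with control afterwards. With slide effects removed, 3 of 6 low, 5 of 5 medium and 5 of 6 high dose arrays lay below every control array. The change was -0.27 ± 0.16 at the low dose (adjusted p = 0.514), -0.51 ± 0.16 at the medium dose (adjusted p = 0.0750) and -0.68 ± 0.16 at the high dose (adjusted p = 0.00780), and the high dose change alone was called. Within slides the high dose differed from control by -0.95 to -0.26, below 0 on all 4. Without high dose replicate 1 the high dose change was -0.56 (adjusted p = 0.0242), below 1.5-fold, and without control replicate 1 the medium dose change was -0.60 (adjusted p = 0.0461) and was called. The size depended on the handling of background: over all alternatives the high dose change ran from -1.68 to -0.34. The log2 ratios the authors deposited gave -0.34 at the high dose (adjusted p = 0.382), not called, whereas the medium dose was called with the scanner's log ratio (-1.25, adjusted p = 0.0150) and with normexp correction (-0.61, adjusted p = 0.0290). The high dose call was also lost with no slide term (adjusted p = 0.249), with slide as a random block (adjusted p = 0.0728), with only the 2 groups in the fit (adjusted p = 0.0538) and without slide 2 (adjusted p = 0.0599).

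Ccn4 encodes a WNT-induced matrix protein. By its brightest probe the mean log2 ratio was 2.11 ± 0.24 (SD, n = 5) in control, 2.50 ± 0.47 (n = 6) at the low, 2.41 ± 0.03 (n = 5) at the medium and 2.32 ± 0.14 (n = 6) at the high dose. The changes of 0.37, 0.30 and 0.19 had adjusted p of 0.263, 0.399 and 0.646. All 5 medium dose arrays stood above the highest control array by a small margin, 2.36 against 2.34. With slide effects removed, 2 of the 5 did. The other probe of Ccn4 changed by -0.17, 0.10 and -0.02 and was not called either. Ccn3, a CCN protein known to counter CCN2 in several tissues, had a Cy5 signal of 61.5 to 83, was detected on 2 of 22 arrays and was well above background on none. Ccn6, which was not among the 10 genes, was detected on 1 array.

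**Figure D2:**
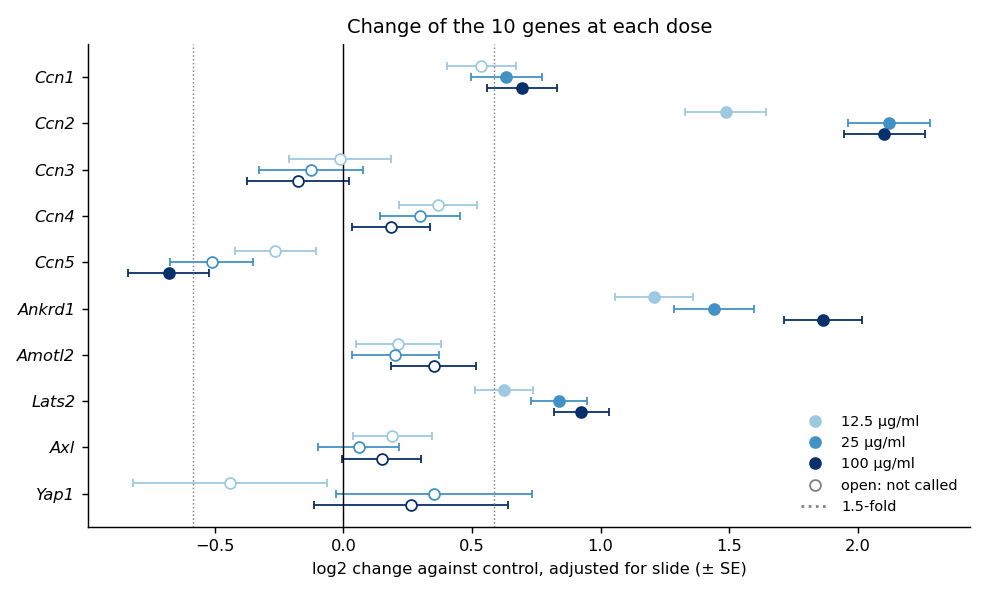
Change of each gene against control at each dose (horizontal axis, log2, adjusted for slide; bars are ± SE of the fit), with filled points where the change was called and open points where it was not. Ccn2, Ankrd1 and Lats2 are called at all 3 doses, and Ccn5 is the only gene called lower.

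Ankrd1 encodes CARP, an ankyrin repeat protein of the nucleus and the sarcomere that is widely used as a readout of YAP activity. Its log2 ratio was -0.53, -0.05, -0.20, -0.13 and 0.11 on the control arrays. It ranged from 0.50 to 1.54 (median 1.11) at the low dose, was 0.90, 1.36, 1.21, 1.51 and 1.44 at the medium dose, and ranged from 1.37 to 2.10 (median 1.73) at the high dose. Every exposed array was above every control array. The change was 1.21 ± 0.15 at the low dose (adjusted p = 6.47e-05), 1.44 ± 0.15 at the medium dose (adjusted p = 5.64e-06) and 1.86 ± 0.15 at the high dose (adjusted p = 7.95e-08), which is 2.31-fold, 2.71-fold and 3.64-fold. The within-slide differences were 0.79 to 1.67, 1.33 to 1.63 and 1.76 to 2.02 at the 3 doses in turn.

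Lats2 encodes a kinase that phosphorylates YAP and TAZ and holds them in the cytoplasm, and its own transcription is raised by YAP in a feedback loop. Its spot was marked as an outlier on control replicate 4 and low dose replicate 4, so those arrays gave no value. On the other arrays the log2 ratio was 1.20, 1.24, 1.61 and 0.93 in control and 1.92, 1.59, 2.33, 1.82 and 1.70 at the low dose. It was 1.98, 1.86, 2.27, 1.98 and 2.06 at the medium dose and ranged from 1.75 to 2.37 (median 2.16) at the high dose. At the medium and high doses no array overlapped with control, and at the low dose 4 of 5 stood above every control. The change was 0.62 ± 0.11 at the low dose (adjusted p = 0.00326), 0.84 ± 0.11 at the medium dose (adjusted p = 8.48e-05) and 0.93 ± 0.11 at the high dose (adjusted p = 1.37e-05). The low dose call was not stable. Without control replicate 5, or without replicate 1 or 3 of the low dose, the change was 0.54 to 0.58, under 1.5-fold, with adjusted p of 0.0120 to 0.0156, and without the 3 arrays that stood apart it was 0.58 (adjusted p = 0.0200). It was 0.58 with the authors' log2 ratios and 0.57 without slide 4, not called either. Without slide 1 (0.71, adjusted p = 0.0777) and with only the 2 groups in the fit (0.64, adjusted p = 0.160) the size was kept and the p-value did not pass. The second Lats2 probe, dimmer with Cy5 of 137 to 698.5, changed in the same direction by 0.34, 0.36 and 0.56 (adjusted p = 0.0791, 0.0462 and 0.00103) and was called at no dose, since none reached 1.5-fold. The mean of both probes was called at the high dose alone, with 0.44 at the low and 0.56 at the medium dose.

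Amotl2, Axl and Yap1 did not pass the test. Amotl2 encodes a motin that tethers YAP at junctions and the actin skeleton. Its changes were 0.21, 0.20 and 0.35 (adjusted p = 0.654, 0.688 and 0.274), with a mean log2 ratio of 1.30 ± 0.31 (SD, n = 5) in control and 1.71 ± 0.37 (n = 6) at the high dose. Axl, a receptor tyrosine kinase for GAS6, changed by 0.19, 0.06 and 0.15 (adjusted p = 0.672, 0.931 and 0.753). Its ratio followed the slide: slide alone accounted for 83.5% of the variance of Axl over the 22 arrays and group alone for 6.17%, against 14.0% and 85.6% for Ccn2. Yap1 changed by -0.44, 0.35 and 0.26 (adjusted p = 0.695, 0.783 and 0.845) with standard errors of 0.38 in each. The negative value at the low dose came with replicate 4, 1 of the arrays that stood apart, where the log2 ratio was -1.59 while the other 5 low dose arrays lay between 0.70 and 2.18. Without it the low dose change of Yap1 was 0.10 (adjusted p = 0.910). The Yap1 spot of control replicate 3 was marked as an outlier and gave no value.

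**Figure D3:**
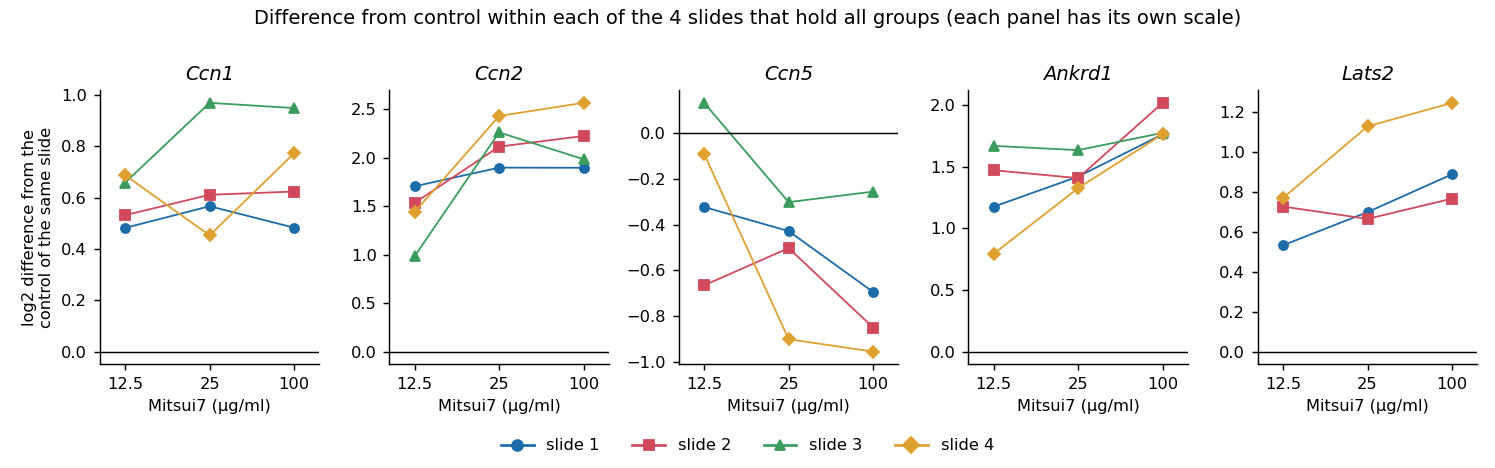
Difference in log2 ratio from the control of the same slide (vertical axis, a scale for each gene) at the 3 exposed concentrations (horizontal axis) for the 5 genes called at any dose, with 1 line per slide. Ccn1, Ccn2, Ankrd1 and Lats2 lie above 0 on every slide with a value, and Ccn5 lies below 0 on all 4 slides at the medium and high doses.

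No gene of the 10 was called between doses. Between the high and the low dose 0.239% of 33097 probes were called, and Ankrd1 (0.66 ± 0.14, adjusted p = 0.0555) and Ccn2 (0.62 ± 0.15, adjusted p = 0.0899) came nearest among the 10. For Ankrd1 5 of 6 high dose arrays were above every low dose array and for Ccn2 4 of 6, which became 6 of 6 and 2 of 6 once slide effects were removed. Both turned on the arrays that stood apart. Without low dose replicate 1, Ankrd1 (0.74, adjusted p = 0.0160) and Ccn2 (0.76, adjusted p = 0.00597) were called, and without low dose replicate 4 Ankrd1 was (0.74, adjusted p = 0.0305). With replicate number in place of slide Ankrd1 was called at 0.66 (adjusted p = 0.0303). Without all 3 arrays that stood apart both were called, at 0.87 for Ankrd1 (adjusted p = 0.00357) and 0.67 for Ccn2 (adjusted p = 0.0140). The 3 arrays were chosen after seeing the data. Low dose replicate 1 was among them for its likeness to the medium dose arrays, so leaving it out can by itself widen the gap. The calls made without these arrays therefore cannot decide whether the doses differ. Between the medium and the low dose limma called 0% of 31661 probes (2255 had an unadjusted p under 0.05), with Ccn2 at 0.64 ± 0.16 (adjusted p = 0.885). Between the high and the medium dose it called 0% of 32710 (1624 unadjusted), with Ccn2 at -0.02 ± 0.16 and Ankrd1 at 0.42 ± 0.15.

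The genes that rose also varied together from array to array. After removing slide means, the Pearson correlation over the 22 arrays was 0.92 between Ccn2 and Ankrd1, 0.82 between Ccn1 and Ccn2 and 0.84 between Ccn1 and Ankrd1, and over the 20 arrays with a Lats2 value it was 0.91 between Lats2 and each of Ccn2 and Ankrd1. Ccn5 ran against Ccn2 (-0.71). These values are a description: the points share the 4 dose groups, which set most of the spread. Among 11437 probes detected and measured on all arrays, the genes most like Ccn2 were Pdzd8 (0.97), Gsto2 (0.97), Rcc1 (0.97), Klf4 (0.96) and Jun (0.96). Jun and Klf4 encode transcription factors of the immediate-early response, and their changes at the high dose were 1.58 and 1.42. Those most like Ccn1 were Rad23b, Rtn4, Sox4, Wdr36 and Marcksl1, with correlations from 0.90 to 0.92.

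The genes of TAZ, the TEAD factors and the TEAD cofactors Vgll3 and Vgll4 were all detected, 7 of 7. Of them 3 were called higher at the high dose, where 3.27% of all detected probes were, none lower and none at the other doses. These were Tead2 (0.59 ± 0.10, adjusted p = 0.000774), Tead4 (0.79 ± 0.19, adjusted p = 0.0116) and Vgll3 (1.04 ± 0.23, adjusted p = 0.00465), where the TEAD genes encode the DNA-binding partners of YAP and Vgll3 another cofactor that binds them. Tead2 lay at the 1.5-fold limit and lost its call when any 1 of 10 arrays was left out (0.55 to 0.58), as it did without the 3 arrays that stood apart (0.58) and with the replicate block (0.55). Tead4 lost its call without control replicate 3 (0.68, adjusted p = 0.0576), with median centring (0.65, adjusted p = 0.0681), with the authors' log2 ratios (0.62, adjusted p = 0.196), with no slide term (adjusted p = 0.0805) and without slide 2 (adjusted p = 0.114). Vgll3 lost it without slide 1 (0.80, adjusted p = 0.0513). With the replicate block Vgll3 was called at the medium dose too (0.72, adjusted p = 0.0166). The median change of the 7 was 0.37, 0.33 and 0.25 at the 3 doses. Wwtr1, which encodes TAZ, ran the other way across doses, with 0.56 at the low, 0.26 at the medium and -0.09 at the high dose. Its log2 ratio ranged from 0.65 to 1.15 over the 5 low dose arrays with a value and from 0.08 to 0.53 at the high dose, without overlap, and the difference of -0.64 ± 0.13 between those doses was called (adjusted p = 0.0342). Over all probes, calls between those doses fell from 79 to 4 with median centring, and whether the Wwtr1 call held was not tested. Tead1 and Tead3 were not called, with changes of 0.06 and -0.42 at the high dose.

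Of 22 kinases and regulators of the Hippo pathway, 19 were detected. At the low dose 1 was called higher, at the medium dose none, and at the high dose 3 higher and 1 lower, with a median change of 0.09, 0.26 and 0.29. Over all detected probes 1.3% were called higher at the low dose, and 3.27% higher and 4.18% lower at the high dose, so that 1 lower of 19 is near the background. The genes called higher at the high dose were Ajuba (0.81 ± 0.16, adjusted p = 0.00184), a LIM protein that restrains LATS kinases, Amotl1 (0.70 ± 0.17, adjusted p = 0.0126), a motin like Amotl2, and Ptpn14 (0.68 ± 0.14, adjusted p = 0.00351), a phosphatase that binds YAP. Ajuba was the gene called at the low dose (0.61 ± 0.16, adjusted p = 0.0353), a call that was lost when any 1 of 9 arrays was left out and without the 3 arrays that stood apart (adjusted p = 0.0504). The high dose call of Amotl1 was lost without high dose replicate 1 (0.58, adjusted p = 0.0406), with the authors' log2 ratios (adjusted p = 0.101) and with no slide term (adjusted p = 0.0987), and likewise without slide 2 (0.69) or slide 4 (0.63, adjusted p = 0.0732). At the medium dose Amotl1 was called with the replicate block (0.61, adjusted p = 0.000352) and without the 3 arrays that stood apart (0.69, adjusted p = 0.0323). With median centring Amotl1 (0.58), Ptpn14 (0.60, adjusted p = 0.0917) and Fat4 (-0.56, adjusted p = 0.0102) lost their high dose calls. Fat4, an atypical cadherin at the head of the pathway, was called lower at the high dose (-0.69 ± 0.10, adjusted p = 5.31e-05), with all 6 arrays below every control, at a Cy5 signal of 93 to 240. Lats1 and Nf2, as genes not called, changed by 0.45 and 0.02 at the high dose.

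Of 16 further genes known as YAP and TAZ targets, 15 were detected, and they moved both ways. At the low dose 4 were called higher and 2 lower, at the medium dose 3 and 2, and at the high dose 5 and 3, with medians of -0.02, 0.09 and 0.02. The shares over all detected probes were 1.3% higher and 1.92% lower, 2.62% and 2.88%, and 3.27% and 4.18% at the 3 doses in turn. Gadd45a, a stress-induced regulator of growth arrest, rose most, by 1.15 ± 0.21, 1.58 ± 0.22 and 1.74 ± 0.21 (adjusted p = 0.00326, 0.000104 and 1.53e-05). Its log2 ratio ranged from -2.51 to -1.20 in control and from -0.59 to 0.24 at the high dose. F3, which encodes tissue factor and starts coagulation, rose by 0.64, 0.88 and 0.94, and Fjx1 by 0.67, 0.78 and 0.88. The low dose call of F3 was lost without control replicate 3 (0.57), low dose replicate 1 (0.58) or the 3 arrays that stood apart (0.53). With median centring F3 was called at no dose, with 0.50, 0.97 and 1.02 (adjusted p = 0.569, 0.145 and 0.0911). Tgfb2, a growth factor of the TGF-beta family, fell at each dose, with changes of -0.85 ± 0.11, -1.24 ± 0.11 and -1.84 ± 0.11 (adjusted p = 7.87e-05, 8.27e-07 and 1.45e-09). Its log2 ratio ranged from 0.41 to 0.77 in control, -0.45 to 0.00491 at the low, -0.74 to -0.44 at the medium and -1.39 to -0.79 at the high dose, so that neighbouring groups did not overlap except for the low and medium doses, which met near -0.45. The step from the low to the high dose was -0.98 ± 0.10 (adjusted p = 0.000133). Ccdc80, a secreted matrix protein, fell by 0.64, 1.02 and 1.02 (adjusted p = 0.0175, 0.000211 and 9.27e-05). Its low dose call was lost without control replicate 1 (-0.52) or 3 (-0.62) or low dose replicate 1 (-0.53) and without the 3 arrays that stood apart (-0.57, adjusted p = 0.0924). With median centring Ccdc80 lost its low and medium dose calls (-0.79 and -0.93, adjusted p = 0.294 and 0.170). Fjx1 then lost its calls at these doses too (0.46 and 0.60, adjusted p = 0.210 and 0.0547), and Gadd45a at the low dose (1.02, adjusted p = 0.176). The low dose call of Fjx1 was also lost with the authors' log2 ratios (0.55).

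**Figure D4:**
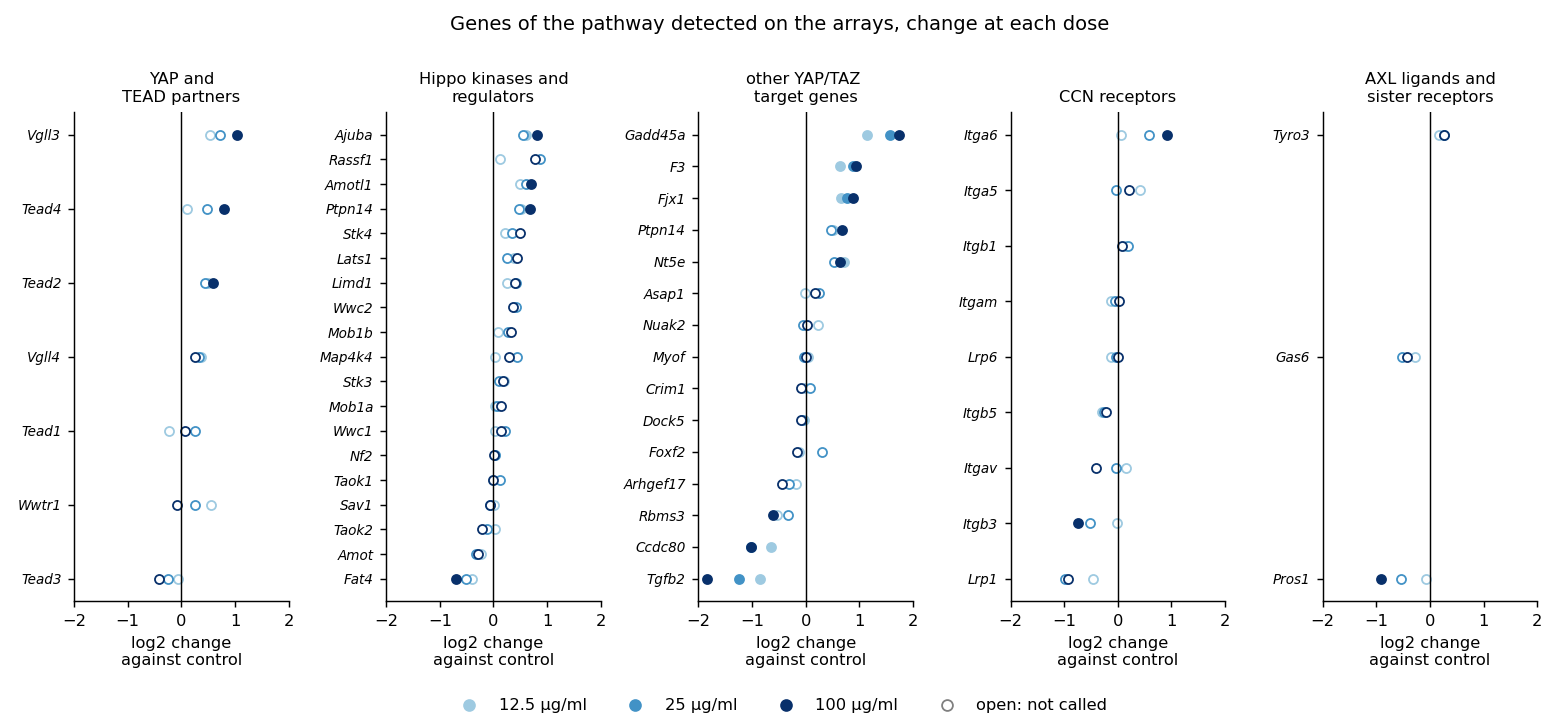
Change against control (horizontal axis, log2) at each dose for the detected genes of 5 pathway lists, 1 row per gene, ordered by the change at the high dose. Filled points were called. Gadd45a and Tgfb2 mark the ends, at 1.74 and -1.84 at the high dose.

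The surface receptors of CCN proteins were detected for 9 of 9 genes, and the high dose brought 1 call in each direction, beside 3.27% and 4.18% of all detected probes, and none at the other doses. Itga6, the alpha chain of laminin-binding integrins, rose by 0.92 ± 0.19 (adjusted p = 0.00301), with log2 ratios of -4.40 to -4.00 in control and -3.69 to -3.13 at the high dose. Itgb3, the beta chain of the vitronectin receptor, fell by 0.74 ± 0.16 (adjusted p = 0.00444). Both differed between the high and the low dose, by 0.87 ± 0.18 (adjusted p = 0.0415) and -0.72 ± 0.15 (adjusted p = 0.0431). With median centring or without slide 2, no probe was called higher between these doses, so the Itga6 call was lost there. Whether the Itgb3 call between doses held under the alternatives was not tested. Itga6 lost its high dose call with median centring (0.91, adjusted p = 0.0720) and without slide 1 (0.75, adjusted p = 0.124). Itgb3 lost it with median centring (-0.76, adjusted p = 0.106) and as the mean over its probes (-0.48, adjusted p = 0.00860). The median over the 9 was -0.02, -0.04 and -0.00115. Of the ligands and sister receptors of Axl, 3 of 4 were detected. Pros1, a ligand of the family, was lower at the high dose (-0.91 ± 0.26, adjusted p = 0.0327), a call lost when any 1 of 7 arrays was left out, and Gas6 changed by -0.43 (adjusted p = 0.383).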

How the data were processed

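The authors hybridised Cy5-labelled RNA of FE1 cells against Cy3-labelled reference RNA on Agilent 2-colour arrays and deposited scanner intensities and log10 ratios for each array (Feature Extraction 10.7.3.1 and an mm9 grid per the file headers), with 1 table of normalized log2 ratios. The deposited intensities were the main data. The deposited log10 ratio and the authors' log2 ratios served as alternatives.

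As in the study's methods, median signals without background subtraction were used and spots of a probe were averaged by the median. Normalization by loess within arrays, with 3671 control spots left out and spots marked as outliers (0.401% to 6.22%) set to missing, was added here. Detection of a probe required more Cy5 signal than 308 negative control spots gave on that array, taken as their mean plus 3 SDs after trimming 5%. Dose groups were compared with limma 3.58.1 (R 4.3.3) with group and slide as terms on all 22 arrays, where the study used MAANOVA, with Benjamini-Hochberg adjusted p-values over 55681 probes. Scripts were tested on simulated data. Of the probes, 26413 matched a symbol of the RefSeq GRCm38.p6 table, used for names.

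The 10 genes, the pathway lists and the tests were chosen with earlier results of these data known. All 10 genes are named, and from each list at most the 4 called genes with the largest change at the high dose plus at most 2 others. Ptpn14 is on 2 lists. Each slide was scanned in 1 run, so slide and scan cannot be told apart. Samples with the same replicate number deviated together in all 31 pairs (r 0.177 to 0.817), so the numbers were taken to pair the samples. Only 4 of these pairs lay on different slides (r 0.271 to 0.503). Slides 2, 3 and 5 each held 1 replicate number, so pairing and slide cannot be told apart there. On slide 1, which held replicates 1 and 2 of every group, replicate 1 lay below replicate 2 in every group for Amotl2 and Axl. A fit with slide alone does not take this difference out. The main fit used slide, and replicate number in its place was an alternative. On slide 4 the control was replicate 5 while the low and high dose arrays were replicate 6. Exposures were made in sets of 3 per dose and experiment day, and which arrays share a day is not given in the sources used here, so p-values measure the spread between these arrays. No pair of arrays looked like 1 array deposited again (highest r 0.961). The number of arrays limits the precision.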

Additional observations from a re-analysis of the deposited data

Results flagged for a closer look

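In 2 of the 48 groups of arrays examined, 1 array lay far from the rest, where chance gives about 1 in 20. Both were control replicate 1. The log2 ratio of Amotl2 was 0.760 there, under the other 4 controls at 1.32 to 1.52. That of Ccn1 was -1.13, under the other 4 at -0.61 to -0.42. Replicate 1 was also the lowest array of Amotl2 at the low, medium and high doses, at 1.11, 1.12 and 1.25. For Ccn1 it was the lowest at the medium and high doses (-0.48 and -0.52), while replicate 2 was the lowest at the low dose (-0.37).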

How the results depend on the processing

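Over 43 alternatives Ccn2 kept its call at all 3 doses, and Ankrd1 at the medium and high doses. Median centring gave 1, 2 and 3 of the 10 genes at the low, medium and high doses, and a 2-fold limit gave 2 at the medium and 2 at the high dose. Between the high and the low dose the replicate block gave 1 gene, and leaving out the 3 arrays that stood apart, chosen after seeing the data, gave 2. The replicate block changed no other count of the 10 genes. Among the pathway genes named, it gave Vgll3 and Amotl1 a call at the medium dose and took that of Tead2 at the high dose. Leaving out 1 array gave 2 to 4 genes at the low, 3 to 4 at the medium and 4 to 5 at the high dose, 0 to 2 between the high and the low dose, and 0 to 0 between the other doses. Over all probes, 987, 1654 and 2410 were called at the 3 doses, 413, 600 and 1263 with median centring, 261, 443 and 710 at 2-fold, and 1849, 2889 and 4381 with no fold limit. With only the low dose and control in the fit 628 were called. Median centring moved the share of calls that were higher from 40.4% to 15.01%, 47.6% to 37.7% and 43.9% to 28.7%. Without low dose replicate 1, 187 probes were called between the high and the low dose, against 79.

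Directions turned only for changes that were not called. Most of these were small, but that of Yap1 at the low dose was -0.44 ± 0.38 (SE). Ccn3 at the low dose was 0.0446 with no slide term, 0.0382 without slide 4, 0.0237 with slide as a random block, and 0.0243 with only 2 groups or without slide 5. At the medium dose it was 0.0562 without slide 4. Axl at the medium dose was -0.0692 without slide 1 and -0.0236 without the arrays that stood apart. At the low dose Yap1 was 0.12 without slide 3. Itga6 there was -0.0806 with median centring, -0.000215 with normexp and -0.26 without slide 1. Pros1 was 0.0647 with only 2 groups, 0.28 without slide 1, 0.0276 without slide 2 and 0.0276 without slide 4. Itgb3 was 0.29 without slide 1, 0.0285 as the mean over probes and 0.12 without the arrays that stood apart. Tead4 was -0.0390 without slide 2 and -0.0329 without the arrays that stood apart. Leaving out 1 array, Ccn3 ran from -0.19 to 0.12 at the low and -0.31 to 0.00304 at the medium dose, and Axl from -0.0931 to 0.16 at the medium and -0.00395 to 0.24 at the high dose. At the low dose Yap1 ran from -0.69 to 0.10, Itgb3 from -0.13 to 0.12, Itga6 from -0.0513 to 0.23, Pros1 from -0.45 to 0.0256 and Tead4 from -0.00148 to 0.25. The causes were not tested. Signal near background limits Ccn3 and Ccn5.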
